A study of Mus musculus with 4 samples.

Results

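The genes of glycolysis and of the hypoxia response were followed in single cells of subcutaneous Lewis lung carcinoma (LLC) tumors. The set held 35 genes of the 18605 listed in all 4 count tables: 20 that carry glucose to lactate and 15 that respond to low oxygen. They were listed by name, with earlier results of these data known. LLC is a transplantable mouse lung carcinoma line, and the tumors were grown in the right flank of female C57/BL6N mice (the label's spelling, C57BL/6N in the paper) of 6 to 8 weeks. The RT group (RT1, RT2 and RT3) held 1 tumor per library, taken 72 h after hypofractionated radiotherapy of 24 Gy, given as 3 fractions of 8 Gy on days 7 to 9 once tumors had reached about 100 mm3. The NT group (radiation naive, with the treatment label Mock) was 1 library into which the cells of 3 tumors had been pooled before sequencing, so that the spread between naive tumors was not measured. All the animals bore the same LLC tumor and none carried an allele or a transgene named in the labels. Because NT had no replicates, NT and RT were not tested against each other, and each library's value is given.

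Glycolysis turns glucose into pyruvate, and lactate dehydrogenase with the lactate exporter disposes of the pyruvate when it is not burned in mitochondria. When oxygen is low, the prolyl hydroxylases (Egln genes) stop marking hypoxia-inducible factor (HIF) for destruction, and HIF binds short motifs near glucose transporter, glycolytic enzyme and survival genes and raises their transcription. In solid tumors this response is known from cells far from vessels, and macrophages also use glycolysis when they are activated.

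NT, RT1, RT2 and RT3 had 69667759, 78585759, 108699844 and 85660188 unique molecular identifiers (UMIs, 1 per captured mRNA molecule) in 10141, 15346, 14994 and 15324 barcodes. The tables differed in what they listed. RT2 held 18605 genes where the others held 32285, and its cells reached at most 11.95% mitochondrial UMIs where cells of NT, RT1 and RT3 reached 92.6%, 91.5% and 97.0%, so the RT2 table had been filtered before deposit. Pairs of libraries shared 1.74% to 1.85% of the smaller one's barcodes, and no result was recomputed without them. The counts of members called in RT against NT, which rest on RT2, are also given without it.

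After filtering, 7254, 8083, 7523 and 9283 cells of NT, RT1, RT2 and RT3 were named tumor cells from their markers, and 582, 2170, 2096 and 1277 were named macrophages. Their median depths were 7368, 5955, 8514 and 6175 UMIs in tumor cells and 3532.5, 3195, 5217.5 and 2795 UMIs in macrophages. A UMI of the tumor markers Rhox5, Krt8 or Krt18 was found in 98.3%, 97.3%, 97.3% and 96.7% of tumor cells. The same markers appeared in 15.98%, 22.5%, 29.4% and 23.3% of macrophages, a type that should lack them. One of the 6 tumor clusters was led by Lum, a matrix gene that is also a fibroblast marker. It held Rhox5 at 1134 counts scaled to a common library total (CPM, UMIs of the gene per 1e+06 UMIs of the class) and Col1a1, the main collagen gene, at 6.89 CPM, where the fibroblast cluster held Col1a1 at 17882 CPM. Between 10.3% and 13.0% of cells per library stayed unnamed. The 35 genes and all other list genes were left out of the clustering, so that the classes were not drawn from them.

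Because HIF reads its target genes through the core motif, written ACGTG or GCGTG, the stretch of 250 bases before the RefSeq start of each gene (mouse build GRCm38.p6) was searched on both strands. An entry was found for 32 of the 35 genes (not for Slc2a3, Bnip3l and Ndrg1). At least 1 motif stood in 26 of the 32 (81.3%), beside 10431 of all 27025 promoters of the same length (38.6%). ACGTG alone was found in 53.1% of the members' promoters and in 16.6% of all, and GCGTG in 56.3% and 28.2%. Because ACGTG read on both strands overlaps itself in CACGTG, that word counts as 2 matches. By group, 12 of 13 hypoxia genes and 14 of 19 glycolysis genes held a match, and Hk1, Gpi1, Aldoa, Tpi1, Pkm and Mxi1 held none in this window. Of the promoters shown, Slc2a1 and Pdk1 had the largest called differences by hypoxia score in tumor cells, and Slc16a3 had the largest in macrophages. Slc16a3 lost that call when RT1 or RT2 was left out. Car9 and Bnip3 had the largest differences by glycolysis score, Car9 with few UMIs in the low cells. Only the high cells carried Car9 past the filter on mean UMIs, so nothing is drawn from the size of its difference. Tpi1 is shown because it holds no match. The promoters are written 5′ to 3′ on the gene's strand, and capitals mark the motif on either strand (CACGT and CACGC are its reverse complements).
Slc2a1, chr4:119108495-119108744, plus strand: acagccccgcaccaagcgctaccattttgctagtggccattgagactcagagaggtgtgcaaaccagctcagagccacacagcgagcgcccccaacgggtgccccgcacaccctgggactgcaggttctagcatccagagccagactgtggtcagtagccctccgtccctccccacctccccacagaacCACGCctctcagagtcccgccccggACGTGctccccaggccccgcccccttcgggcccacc
Pdk1, chr2:71872974-71873223, plus strand: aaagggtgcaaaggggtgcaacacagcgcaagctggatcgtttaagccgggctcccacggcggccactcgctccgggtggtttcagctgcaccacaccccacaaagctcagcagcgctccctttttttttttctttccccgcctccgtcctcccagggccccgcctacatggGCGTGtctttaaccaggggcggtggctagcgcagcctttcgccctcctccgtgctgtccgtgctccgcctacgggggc
Slc16a3, chr11:120948817-120949066, plus strand: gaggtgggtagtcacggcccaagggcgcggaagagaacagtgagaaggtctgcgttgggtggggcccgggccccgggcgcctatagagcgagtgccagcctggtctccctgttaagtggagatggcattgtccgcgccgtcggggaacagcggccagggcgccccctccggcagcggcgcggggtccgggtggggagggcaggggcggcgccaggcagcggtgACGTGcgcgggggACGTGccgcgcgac
Car9, chr4:43506776-43507025, plus strand: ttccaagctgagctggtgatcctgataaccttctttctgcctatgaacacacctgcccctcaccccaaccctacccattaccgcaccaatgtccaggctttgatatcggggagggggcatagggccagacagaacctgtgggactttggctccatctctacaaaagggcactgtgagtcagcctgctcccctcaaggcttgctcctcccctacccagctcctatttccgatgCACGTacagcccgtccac
Bnip3, chr7:138909507-138909756, minus strand: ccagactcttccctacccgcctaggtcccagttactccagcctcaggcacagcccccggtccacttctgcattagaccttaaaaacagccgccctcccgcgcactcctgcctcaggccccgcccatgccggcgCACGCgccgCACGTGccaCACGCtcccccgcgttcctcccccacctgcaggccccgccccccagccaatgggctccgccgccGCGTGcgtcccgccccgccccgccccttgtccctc
Tpi1, chr6:124814159-124814408, minus strand: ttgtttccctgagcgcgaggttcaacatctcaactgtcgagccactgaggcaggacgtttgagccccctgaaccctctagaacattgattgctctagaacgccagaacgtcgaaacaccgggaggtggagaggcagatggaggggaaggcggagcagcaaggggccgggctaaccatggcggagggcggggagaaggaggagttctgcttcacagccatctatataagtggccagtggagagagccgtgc
A match is a description of these letters and not a measured binding site. The motif nearest to the start lay at -36 in Slc2a1, -78 in Pdk1, -14 in Slc16a3, -18 in Car9 and -35 in Bnip3.

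In tumor cells the glycolysis gene with the most UMIs over the 4 libraries was Pgk1, the enzyme that makes the first ATP of the pathway, at 2216, 1767, 1110.4 and 1657 CPM in NT, RT1, RT2 and RT3. Ldha, which makes lactate, stood at 972, 757, 656 and 755 CPM, and Aldoa, the main aldolase, at 688, 625, 688 and 611 CPM. The kit counts the 3′ ends of mRNAs, so CPM values compare a gene between samples and are not divided by length. Slc2a1, the widespread glucose transporter, was at 115, 96.9, 80.0 and 91.9 CPM, highest in NT and lowest in RT2. Of the hypoxia genes, Egln3, the prolyl hydroxylase that HIF itself raises, had the most UMIs over the 4 libraries, at 349, 263, 195 and 266 CPM, again highest in NT and lowest in RT2. Car9, a surface carbonic anhydrase that is a classical hypoxia marker, was scarce at 4.45, 4.55, 2.23 and 3.84 CPM.

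Levels of some members differed between the cell classes. The transporter Slc2a3 was nearly absent from tumor cells (4.17, 4.28, 3.32 and 4.19 CPM) and macrophages (1.199, 1.04, 0.533 and 1.11 CPM), while neutrophils held 203, 147, 127 and 147 CPM. Lymphocytes held it at 106 ± 12.6 CPM (SD, n = 4 libraries), and the ranges of these classes did not overlap those of tumor cells or macrophages. Slc16a3, the lactate exporter, stood at 186 ± 66.2 CPM in neutrophils, where tumor cells held 34.9, 23.7, 26.4 and 22.8 CPM. Pfkp, the platelet-type phosphofructokinase, stood at 331 ± 55.7 CPM in dendritic cells. Hif1a, the regulated subunit of HIF, was at 368 ± 27.0 CPM in monocytes and at 252, 250.3, 217 and 257 CPM in tumor cells. Neutrophils were few (23, 184, 255 and 126 cells), and the values of small classes carry that limit. In the plot of levels by class the tumor column is set apart by Egln3 and Adm and the neutrophil column by Slc16a3, while Slc2a3 is high in neutrophils and lymphocytes.

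Tumor cells and macrophages of the same library were compared by edgeR's quasi-likelihood test with library as a block, with n = 4 libraries and Benjamini-Hochberg adjustment over 13162 genes. Of the 35 genes, 10 were higher in tumor cells and 13 were lower. Of all genes tested, 39.5% were higher and 35.4% lower, so the shares among these genes were near the background. Adm, the vasodilating peptide adrenomedullin, was at 162, 201, 187 and 173 CPM in tumor cells and at 13.2, 19.8, 16.5 and 25.9 CPM in macrophages, a log2 difference of 2.70 ± 0.20 (SE, n = 4). Egln3 was at 24.4, 24.5, 22.0 and 39.2 CPM in macrophages, a log2 difference of 2.69 ± 0.24. For both genes the lowest tumor value lay well above the highest macrophage value. Ndrg1, a stress-responsive growth regulator, differed by 1.37 ± 0.18, and Ddit4, an inhibitor of mTORC1, by 1.23 ± 0.19 in the same direction. Also higher in tumor cells were Slc2a3, P4ha2, Kdm3a, Hk2, Pgk1 and Pkm, of which Pkm lost its call when NT, RT1 or RT3 was left out. Slc2a3 had a mean under 10 UMIs in macrophages, so only the tumor cells carried it past the filter on mean UMIs. It is counted among the 10, but nothing is drawn from its call.

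Macrophages instead held more of Pfkfb3 and Pfkfb4, bifunctional regulators of phosphofructokinase. Pfkfb4 differed by -3.13 ± 0.31 and Pfkfb3 by -2.38 ± 0.25 on the log2 scale. Of the other genes of this family, Pfkfb1 was higher in tumor cells (0.63, adjusted p = 0.0417) and Pfkfb2 was not called (0.18, adjusted p = 0.515). Aldoc, the minor aldolase, differed by -2.28 ± 0.15, with 6.27, 2.87, 2.52 and 2.12 CPM in tumor cells against 22.8, 8.18, 6.70 and 9.53 CPM in macrophages. Car9 (-1.82 ± 0.18) and the mitophagy receptor Bnip3 (-1.06 ± 0.19) were also lower in tumor cells, although both belong to the hypoxia group that Adm and Egln3 represent. The other genes lower in tumor cells were Ankrd37, Aldoa, Gpi1, P4ha1, Gapdh, Pfkp, Ero1l and Eno1, of which Eno1 lost its call without RT2, with a mean of at least 1 UMI and without macrophages holding tumor marker UMIs. Slc2a1 differed by -0.04 (adjusted p = 0.769) and Hif1a by -0.24 (adjusted p = 0.0728), neither past the threshold. Tumor cells supplied most UMIs of most members: for Egln3 98.7%, 95.9%, 94.9% and 96.7% of all UMIs of the library, and for Pfkfb4 68.7%, 32.8%, 38.0% and 62.7%. Free RNA from tumor cells was not removed, and tumor marker genes summed to 75.9, 137, 156 and 189 CPM in macrophages.

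Irradiated and naive tumors were then set side by side within tumor cells. The class was not made up alike, since the cluster led by Lum held 15.2% of tumor cells in NT, against 25.4% (RT1), 28.0% (RT2) and 19.1% (RT3). A gene was called higher or lower in RT when its log2 ratio to NT had the same sign and a size of at least 0.5 in all 3 RT libraries. By this rule Tpi1 was higher, Pfkl and Aldoc were lower, and the other 32 genes were not called, against 10.3% of 13361 genes called higher and 1.92% called lower. The same 3 genes were called without the cluster led by Lum. Tpi1, triosephosphate isomerase, was at 209 CPM in NT (13021 UMIs, exact 95% Poisson interval 205 to 213 CPM) and at 372, 352 and 304 CPM in RT, all above NT, with log2 ratios of 0.83, 0.75 and 0.54. Pfkl, the liver-type phosphofructokinase, was at 33.6 CPM in NT (32.2 to 35.1) and at 17.5, 19.2 and 17.6 CPM in RT, with log2 ratios of -0.95, -0.81 and -0.93. Aldoc was at 6.27 CPM in NT (391 UMIs, 5.67 to 6.93) and at 2.87, 2.52 and 2.12 CPM in RT, with log2 ratios of -1.13, -1.31 and -1.56. The RT libraries lay close together for Pfkl (18.1 ± 0.949 CPM, SD, n = 3), but the spread between naive tumors is not known. These intervals cover counting error only.

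Most glycolysis genes sat below NT in irradiated tumor cells by a small amount. Of the 20, 13 were below NT in every RT library and 3 were above, beside 30.4% of all genes below and 32.1% above. The median log2 ratio of the 20 was -0.40, where that of all 13361 genes was -0.01. Per library the median was -0.19 in RT1, -0.45 in RT2 and -0.31 in RT3. All 5 lower glycolysis genes and all 3 lactate and pyruvate genes were below NT in every RT library, though none met the rule in all 3. Eno1, enolase, was at 161, 71.1, 120.4 and 85.4 CPM, with log2 ratios of -1.18, -0.42 and -0.92. Pgk1 had log2 ratios of -0.33, -0.997 and -0.42, Ldha of -0.36, -0.57 and -0.37, and Slc16a3 of -0.56, -0.40 and -0.62. Summed over the 20 genes, tumor cells held 7705, 6796, 5699 and 6473 CPM. Hk1 (0.24, 0.42 and 0.06) and Pfkp (0.27, 0.05 and 0.07) were the other genes above NT in every RT library. Gapdh, Pgk1, Ldha, Eno1, Tpi1, Aldoa, Pgam1 and Pkm have near-identical processed copies in the genome, so that their reads may be split or lost in counting.

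The hypoxia genes differed less from NT, and their median ratio was lowest in RT2. None of the 15 was called, 2 were above and 6 below NT in every RT library, and the median log2 ratio was -0.24 (RT1 -0.01, RT2 -0.34, RT3 -0.21). Ndrg1 was at 125, 290.4, 151 and 237 CPM, with log2 ratios of 1.22, 0.27 and 0.92, above NT in every RT library but short of the rule in RT2. Egln3 had log2 ratios of -0.41, -0.84 and -0.39. Bnip3, at 90.3, 92.3, 45.6 and 66.7 CPM, was level with NT in RT1 and lower in RT2 and RT3. P4ha2, a collagen prolyl hydroxylase, was at 12.6, 10.9, 6.81 and 11.4 CPM, and Ero1l, which forms disulfide bonds in the endoplasmic reticulum, at 103, 126, 59.3 and 89.7 CPM. Both were lowest in RT2. P4ha1, at 107, 97.8, 84.3 and 87.3 CPM, and Bnip3l, at 115, 100.4, 94.2 and 99.2 CPM, were below NT in every RT library. Without RT2 the rule called 2 members higher and 6 lower in tumor cells, beside 11.5% and 5.49% of 13230 genes.

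**Figure D1:**
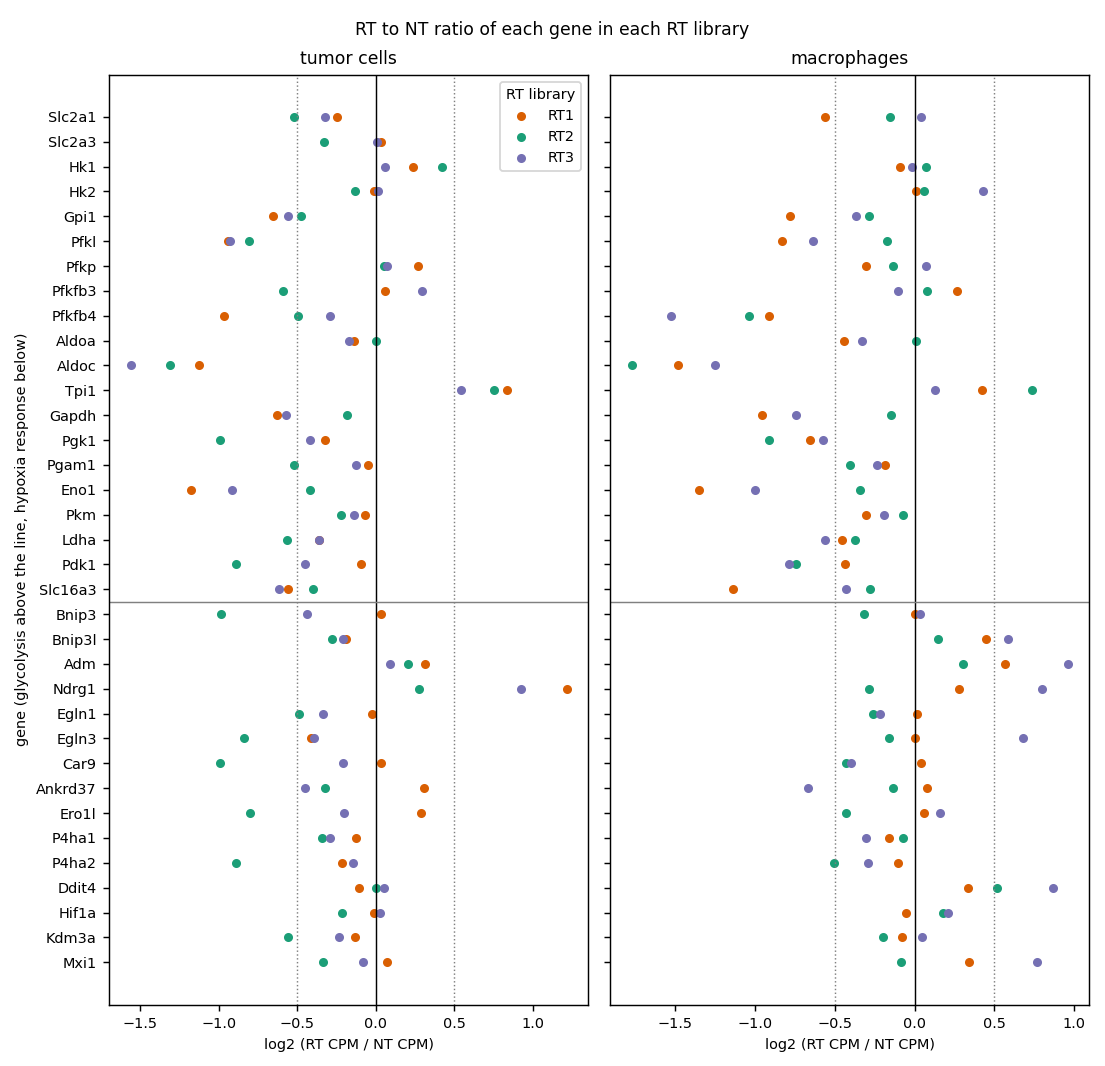
Log2 ratio of each RT library to NT (x axis) for the 35 genes (y axis) in tumor cells and in macrophages, 1 point per RT library. In tumor cells Tpi1 lies right of 0.5 and Pfkl and Aldoc left of -0.5 in all 3 libraries, and the points of RT2 often stand apart from those of RT1 and RT3.

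Other gene lists were set beside these values. In tumor cells the 12 cycling genes summed to 3207, 2832, 2237 and 2775 CPM in NT, RT1, RT2 and RT3, and the 12 dissociation and stress genes to 15846, 12956, 17279 and 14215 CPM. Macrophage markers in tumor cells summed to 5.22, 29.1, 37.8 and 14.3 CPM. Monocyte markers summed to 75.8, 183, 187 and 157 CPM there, and fibroblast markers to 963, 1861, 1451 and 1462 CPM. Their part in the RT to NT ratios was not tested. Of 24 other glycolysis and branch genes tested by the rule, 4 were higher in RT (Pdk4, Hk3, Eno3 and G6pdx) and 1 was lower (Tkt). Tkt, transketolase of the pentose phosphate pathway, was at 43.4, 15.5, 28.9 and 24.7 CPM, while G6pdx, the enzyme that opens that pathway, was at 43.6, 69.4, 64.0 and 68.1 CPM. Pdk4 and Hk3 were near the limit of detection, with 4 and 9 UMIs in NT. They passed the filter of a mean of at least 10 UMIs only through RT, so nothing is drawn from their calls. Hk3 was also far lower in tumor cells than in macrophages (log2 difference -7.80), and the part of macrophage RNA in its level was not tested. Of 26 other HIF target genes, Angptl4, a lipase inhibitor, was called higher at 5.95, 13.5, 21.0 and 15.3 CPM, and none was called lower. None of 7 genes of the HIF machinery was called, and 1 of 16 respiratory chain genes, Ndufb8, was higher.

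In macrophages the rule called no member higher and 3 lower, Pfkfb4, Aldoc and Pgk1, of 34 tested, against 12.5% of 10854 genes higher and 8.18% lower. Pfkfb4 was at 24.4 CPM in NT (61 UMIs, 18.6 to 31.3) and at 13.0, 11.9 and 8.42 CPM in RT, with log2 ratios of -0.91, -1.04 and -1.53. Aldoc was at 22.8 CPM in NT (57 UMIs, 17.2 to 29.5) and at 8.18, 6.70 and 9.53 CPM in RT, with log2 ratios of -1.48, -1.77 and -1.25. Pgk1 was at 1132, 719, 601 and 762 CPM, with log2 ratios of -0.65, -0.91 and -0.57. For all 3 genes every RT library lay below the NT interval, but that interval holds counting error alone, and how far naive tumors vary is not in it. Of 19 glycolysis genes tested, 12 were below NT in every RT library and 2 were above, with a median of -0.46. In all, 32% of genes were below NT in every RT library and 34.3% were above. The hypoxia genes had a median of -0.07 (0.08 without RT2), with 3 above NT in every RT library: Bnip3l (0.45, 0.15 and 0.59), Adm (0.57, 0.31 and 0.96) and Ddit4 (0.34, 0.52 and 0.87). The collagen hydroxylases P4ha1 (-0.16, -0.07 and -0.31) and P4ha2 (-0.10, -0.50 and -0.29) were below NT in every RT library. Without RT2 the rule called 1 higher and 6 lower in macrophages, beside 16.01% and 10.6% of 10378 genes.

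Beside these, the cycling genes in macrophages summed to 1932 CPM in NT and to 681, 566 and 724 CPM in RT, and all 12 were called lower. The dissociation and stress genes summed to 54001 CPM in NT and to 39873, 46691 and 39157 CPM in RT. The macrophage markers summed to 7868, 13348, 14725 and 11605 CPM, with Mrc1 at 826, 2289, 1024 and 1302 CPM, and the monocyte gene Ccr2 was at 99.1, 24.5, 28.9 and 42.8 CPM. The other monocyte markers went the other way. Ly6c2 was at 18.8, 29.0, 72.0 and 118 CPM and Chil3 at 2.80, 20.2, 29.1 and 139 CPM, and Plac8 and Vcan also lay above NT in every RT library. The part of the cycling cells, the stress genes and these markers in the ratios of the members was not tested. Among 27 other HIF target genes 5 were called higher (Vldlr, Stc2, Loxl2, Angptl4 and Plod2) and 2 lower (Zfp395 and Ak4). No UMI of Vldlr or Stc2 was found in NT macrophages, which allows up to 1.199 CPM (3 UMIs), and RT held 2.42, 4.11 and 2.66 CPM of Vldlr. Both genes passed the filter of a mean of at least 10 UMIs through RT alone, so nothing is drawn from their calls. Loxl2 was at 5.19, 14.7, 16.2 and 25.7 CPM. Tumor cells held it at 177, 199.9, 212 and 209 CPM, and the part of tumor RNA in its level in macrophages was not tested. The same limit holds for Plod2 and Angptl4, which were higher in tumor cells than in macrophages (log2 differences of 3.48 and 2.57). Vldlr was lower in tumor cells (-10.06). Of 25 other glycolysis and branch genes, Bpgm and Eno3 were called higher and Tkt and Taldo1, both of the pentose phosphate pathway, lower. Bpgm was higher in tumor cells than in macrophages by 6.61 on the log2 scale in NT, against 1.10, 0.41 and 2.00 in RT. Its level in NT macrophages was thus near the floor, and nothing is drawn from its call. Eno3 was also higher in tumor cells than in macrophages (2.02), and the part of tumor RNA in its level was not tested. Vhl, which targets HIF for destruction, was called lower (mean log2 ratio -1.01).

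The direction of Tpi1 and Aldoc was shared by some classes outside tumor cells and not by others. In monocytes Tpi1 was at 147 CPM in NT and at 417, 422 and 316 CPM in RT, with log2 ratios of 1.502, 1.52 and 1.10. In dendritic cells it was at 116, 217, 204 and 246 CPM, in lymphocytes at 179, 300.2, 279 and 237 CPM, and in macrophages at 183, 246, 305 and 201 CPM. Every RT library lay above NT in these 4 classes and in tumor cells. Gpi1, Pfkl and Aldoc lay below NT in every RT library of the same 5 classes, although Pfkl and Aldoc had a mean under 10 UMIs in dendritic cells and Aldoc in lymphocytes. All classes share the same 4 libraries, so that these are not independent repeats. The classes with under 50 cells in a library did not all follow. In endothelial cells Tpi1 lay below NT in every RT library, with log2 ratios of -0.06, -0.56 and -1.53 (34 UMIs in NT and 8 in RT3), and no UMI of Aldoc was found in any library. Gpi1 lay below NT in every RT library there, with log2 ratios of -1.21, -0.75 and -1.22. The neutrophils of NT and RT differed in their markers, with S100a8 at 1956, 8670, 12439 and 7404 CPM and the tumor marker Rhox5 at 1052, 691, 571 and 699 CPM. Gpi1 lay above NT in every RT library, with log2 ratios of 0.91, 0.67 and 0.58, but on 2 UMIs in NT neutrophils, and Pfkl there had no UMI in NT and 5, 7 and 12 in RT. Tpi1 lay above NT in every RT library of neutrophils (0.74, 0.20 and 0.35), and Aldoc had a mean under 10 UMIs. In fibroblasts Tpi1 lay above and Gpi1, Pfkl and Aldoc below NT in every RT library, on 9, 6, 7 and 1 UMIs in NT. Other members called in monocytes were Slc2a3 and Aldoc, lower, and Adm and Ndrg1, higher. Ndrg1 was at 87.5, 240.0, 134 and 268 CPM there. Markers of classical monocytes differed too, with Ly6c2 at 637, 1418, 1615 and 2090 CPM and Chil3 at 192, 707, 748 and 2457 CPM, and their part in the ratios was not tested. In monocytes 14.3% of genes were called higher and 5.83% lower, and 39.6% lay above and 25.8% below NT in every RT library. Without RT2, 5 members were higher in monocytes, with Bnip3 and Ero1l added, and Pfkl and Aldoc were lower, beside 17.9% and 8.16% of genes. In dendritic cells Hk1, Tpi1 and Ndrg1 were higher and Gpi1 was lower, with 10.2% and 6.33% of genes called in all, and without RT2 Gapdh and Eno1 were lower as well, beside 14.4% higher and 8.90% lower. The markers of this class summed to 3362, 1860, 1499 and 2017 CPM, of which Ccr7 took 2280, 1035, 803 and 1321 CPM, and the monocyte gene Ly6c2 was at 55.5, 189, 269 and 260.01 CPM. The part of these in the ratios was not tested. In lymphocytes Ndrg1 was higher, and Slc2a1, Pfkl, Egln3 and Mxi1 were lower, with 7.22% and 6.26% in all. Slc2a1 there was at 103, 46.3, 61.2 and 67.3 CPM. Without RT2, 7 were lower, with Aldoc, Gapdh and Eno1 added, beside 8.21% of genes higher and 10.1% lower. This class holds T and NK cells, and its markers differed, with Gzma of cytotoxic cells at 1363, 4385, 3215 and 2533 CPM, and Ccr7 of naive T cells at 191, 90.1, 60.3 and 99.98 CPM. The T cell genes did not differ alike, since Trbc2 was at 1453, 668, 1244 and 835 CPM and Cd3g at 156, 206, 325 and 147 CPM. Their part in the ratios was not tested.

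To see whether the pathways moved together from cell to cell, each tumor cell was thinned to 2000 UMIs and given a hypoxia score, the summed UMIs of 14 of the hypoxia genes (all but Hif1a). In NT a score of 3 UMIs opened the highest tertile, and 47.5% of NT tumor cells (exact 95% interval 46.3% to 48.6%) had that score or more, because many cells were tied at it. The share was 48.5% (47.4% to 49.7%) in RT1, 38.2% (37.0% to 39.3%) in RT2 and 45.1% (44.0% to 46.1%) in RT3. RT2 lay below the other libraries, and RT1 lay above and RT3 below NT. With Egln3 left out of the score the shares were 34.2%, 40.2%, 30.7% and 35.8%, so that RT3 lay above NT. These intervals count cells and not tumors, and 1143, 1189, 1090 and 1413 cells sat at the boundary score. Summed without thinning, the score genes took 1475, 1584, 1147 and 1396 CPM.

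The tumor cells of each library were then ranked by this score, and the highest and lowest tertiles (2297, 2484, 2291 and 2817 cells each) were compared for genes outside the score, pairing the tertiles within the 4 libraries. The mean score was 6.06, 6.53, 4.59 and 5.51 UMIs in the high cells and 0.73, 0.73, 0.58 and 0.66 in the low cells. Of the 20 glycolysis genes, 14 were higher in cells of high hypoxia score and none was lower (edgeR quasi-likelihood test, Benjamini-Hochberg over 10445 genes, adjusted p under 0.05). Of all genes, 13.3% were higher and 14% were lower. The median log2 difference was 0.35 for the 20 genes and 0.0045 for all. By role, 1 of 2 glucose transporters, 7 of 10 genes of upper glycolysis, 3 of 5 of lower glycolysis and all 3 of lactate and pyruvate control were higher.

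Slc2a1 differed most among those called, from 82.7 to 186 CPM in NT, 58.6 to 169 in RT1, 70.3 to 97.8 in RT2 and 70.8 to 123 in RT3. Its log2 difference was 1.02 ± 0.23 (SE, n = 4 libraries, adjusted p = 1.65e-11), and it was smallest in RT2 (0.48) and largest in RT1 (1.53). Pdk1, a kinase that holds back the use of pyruvate in mitochondria, went from 50.7 to 86.9 CPM in NT, 43.7 to 83.1 in RT1, 25.1 to 38.2 in RT2 and 35.9 to 55.7 in RT3. Its difference was 0.77 ± 0.08 (adjusted p = 3.04e-10). Hk2, the inducible hexokinase, was at 159, 143, 157 and 157 CPM in low cells and at 231, 229, 209 and 239 CPM in high cells, with no overlap between the groups (0.57 ± 0.06, adjusted p = 7.12e-12). Pfkp (0.63 ± 0.13), Pfkl (0.57 ± 0.12), Aldoa (0.46 ± 0.10), Pgk1 (0.43 ± 0.12), Gpi1 (0.36 ± 0.08), Slc16a3 (0.35 ± 0.15) and Tpi1 (0.32 ± 0.05) were also higher, Slc16a3 in 3 of the 4 libraries and without its call in DESeq2 or when NT or RT1 was left out. Pgam1 and Ldha, also called, were not higher in RT2 (-0.01 and -0.02). DESeq2 called fewer glycolysis genes in all. Gapdh, often used as a constant reference, differed by 0.06 and Eno1 by 0.06, and neither was called. Nor were Slc2a3, Pfkfb3, Pfkfb4 and Aldoc. Hif1a mRNA, which was left out of the score, was higher by 0.29 ± 0.03 (adjusted p = 7.55e-07), from 220.1 to 274 CPM in NT.

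**Figure D2:**
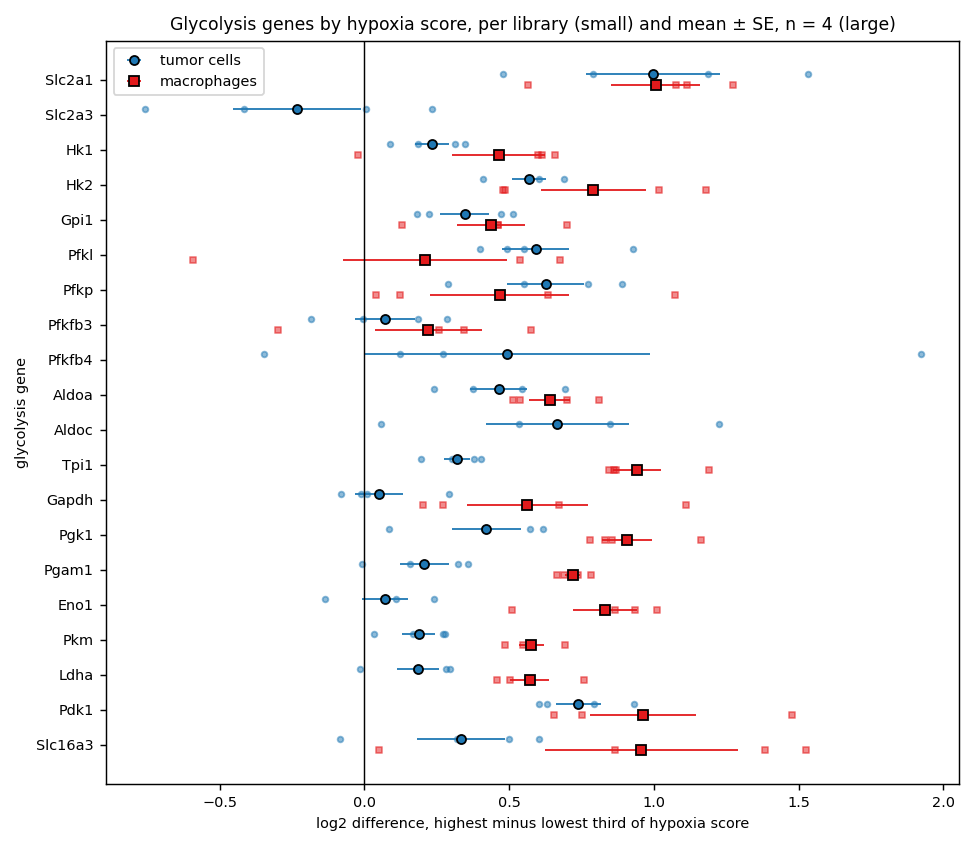
Log2 difference between the highest and lowest tertile of hypoxia score (x axis) for the glycolysis genes (y axis) in tumor cells (blue circles) and in macrophages (red squares). Small points are the 4 libraries and large ones their mean with SE. Slc2a1 and Pdk1 lie far right in both classes, while Eno1 and Gapdh lie near 0 in tumor cells and to the right in macrophages.

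Divided more finely, Slc2a1 was far higher in the last decile than in the ninth in NT, RT1 and RT3, but not in RT2. From the lowest to the highest decile it went from 66.7 to 351 CPM in NT, from 63.0 to 315 in RT1, from 63.2 to 109.9 in RT2 and from 71.5 to 189 in RT3. In the ninth decile it was at 120.5, 121, 95.3 and 101 CPM, so that most of the difference in RT2 lay before the last decile. Pgk1 reached 3425, 3044, 1345 and 2638 CPM in the highest decile. RT2 had the lowest values of both genes there.

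**Figure D3:**
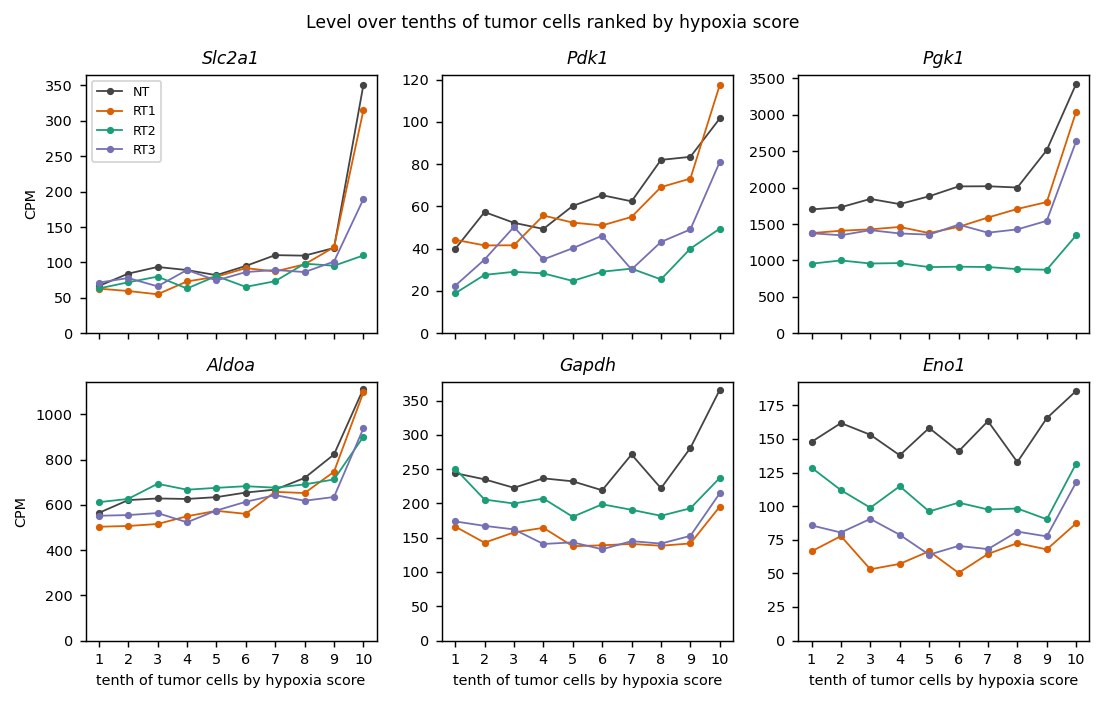
Levels in CPM (y axis) of Slc2a1, Pdk1, Pgk1, Aldoa, Gapdh and Eno1 in tumor cells divided into 10 equal groups by hypoxia score within each library (x axis, 1 lowest to 10 highest), 1 line per library. The Slc2a1 lines of NT, RT1 and RT3 climb at the last group, to 351 CPM in NT, while that of RT2 does not and ends at 109.9 CPM.

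Other genes of the hypoxia response moved with the same score. Of 25 other HIF target genes tested, 19 were higher in tumor cells of high score and 1 was lower. Nos2, inducible nitric oxide synthase, differed by 2.31 ± 0.65, Hmox1, heme oxygenase, by 1.37 ± 0.28, and Vegfa, the main angiogenic factor, by 1.34 ± 0.16 (adjusted p = 2.54e-15). Pgf, Plod2, Ak4, Bhlhe40, Fam162a, Kdm4b and Hilpda were higher by 0.61 to 0.97. Between the classes, Nos2, Hmox1 and Vegfa were lower in tumor cells than in macrophages (log2 differences of -2.7, -5.5 and -2.3). So were Hilpda (-2.9) and Bhlhe40 (-0.61), while Plod2, Ak4, Fam162a and Kdm4b were higher and Pgf was not called. The part of macrophage RNA in the differences by score was not tested. Among 21 other glycolysis and branch genes Pgm1, which links glycogen to glycolysis, was higher and 2 were lower. Of 16 respiratory chain genes 9 were lower and none higher. All 12 cycling genes were lower (median -0.59), among them Rrm2 (-0.73) and Tyms (-0.89), both of which make DNA precursors.

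Some technical measures differed between the same groups of cells. The dissociation and stress genes summed to 16733, 13933, 18234 and 15392 CPM in low cells and to 18490, 15358, 22037 and 17023 CPM in high cells. The median depth before thinning was 7994, 6595.5, 9797 and 6830 UMIs in low cells and 7409, 6081.5, 8534 and 6452 in high cells. The cluster led by Lum gave 37.8% to 41.3% of its cells to the high tertile, another tumor cluster, led by Dpt, 36.2% to 42.5%, and the largest tumor cluster 23.9% to 28.2%. Ranked within each cluster instead, 16 of the 20 glycolysis genes were called higher, and without the Lum cluster 14 were.

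Macrophages were ranked by the same score (158, 552, 652 and 304 cells in each tertile). Of 17 glycolysis genes tested, 13 were higher in high cells and none was lower, beside 2.46% of 6511 genes higher and 2.84% lower. Slc16a3 went from 15.8 to 47.5 CPM in NT, 4.53 to 18.1 in RT1, 17.6 to 35.3 in RT2 and 18.1 to 19.7 in RT3, a log2 difference of 1.02 ± 0.33 (adjusted p = 0.012) that was nearly absent in RT3. It lost its call when RT1 or RT2 was left out, as did Gpi1. Slc2a1 went from 57.0 to 133, 31.7 to 82.4, 58.3 to 90.5 and 49.3 to 112 CPM (0.96 ± 0.15, adjusted p = 6.77e-06). Pgk1 went from 813 to 1557, 551 to 976, 459 to 847 and 495 to 1166 CPM (0.90 ± 0.09, adjusted p = 6.89e-15), so that each high value lay above the low value of its own library. Tpi1 (0.92 ± 0.08) and Pdk1 (0.95 ± 0.18) were higher to a like extent, and Hif1a by 0.46 ± 0.05. Eno1 went from 111 to 168, 30.8 to 59.8, 72.9 to 146 and 36.2 to 78.9 CPM (0.88 ± 0.11). Hk1, Pfkl, Pfkp and Pfkfb3 were not called, and Slc2a3, Pfkfb4 and Aldoc had too few UMIs to be tested.

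Beyond the glycolysis genes, 7 of 16 other HIF target genes were higher in macrophages of high score, among them Nos2 (1.26) and Vegfa (1.18), and of 15 branch genes Pgm1 (0.83). Of the 12 dissociation and stress genes 8 were lower, and of the 12 cycling genes 1 was lower. Tumor markers moved with the score as well: a tumor marker UMI was found in 12.0%, 12.7%, 10.3% and 14.1% of low macrophages and in 12.0%, 17.8%, 17.0% and 23.0% of high ones. Rhox5 was at 41.1, 49.8, 29.9 and 49.3 CPM in low and at 50.6, 77.9, 68.3 and 112 CPM in high macrophages. When macrophages holding any tumor marker UMI were left out, the same 13 genes were called, of 16 tested.

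Whether a gene differed more by score in macrophages than in tumor cells was tested by an interaction term, a comparison chosen after the data had been seen. Of 18 genes tested, 7 differed more in macrophages and none less, beside 2.52% and 3.81% of 6068 genes. They were all 5 genes of lower glycolysis, with Tpi1 and Ldha. Eno1 differed by 0.83 ± 0.14 more (adjusted p = 3.01e-05), higher in 4 of 4 libraries. Tpi1 followed at 0.60 ± 0.09 (adjusted p = 1.45e-06) and Pgam1 at 0.51 ± 0.07 (adjusted p = 7.96e-07). Gapdh was at 0.51 ± 0.25, in 3 of 4 libraries, and lost its call without RT2. Slc2a1 differed by -0.06 (adjusted p = 0.929). The score itself did not span the same range in both classes, since high macrophages reached a mean of 3.04, 3.38, 2.84 and 3.64 UMIs and high tumor cells more.

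The question was also asked from the other side, with tumor cells ranked by the summed UMIs of the 20 glycolysis genes and the hypoxia genes tested. Of the 15, 12 were higher in cells of high glycolysis score and 1 was lower, beside 19.6% of 10450 genes higher and 20.4% lower. Car9 went from 1.31 to 10.9 CPM in NT, 0.805 to 9.46 in RT1, 0.873 to 3.71 in RT2 and 0.532 to 6.92 in RT3, with a log2 difference of 3.07 ± 0.31 (adjusted p = 2.15e-07). Car9 had so few UMIs in low cells that only the high cells carried it past the filter on UMIs. It is counted among the 12, but nothing is drawn from its call or from the size of its difference. Bnip3 went from 47.9 to 159, 42.9 to 180.0, 34.9 to 63.3 and 36.4 to 113 CPM (1.56 ± 0.26, adjusted p = 2.37e-08), again least in RT2. The collagen hydroxylase P4ha2 (1.10 ± 0.10), Ankrd37 (1.10 ± 0.25) and Ero1l (1.00 ± 0.24) followed. Egln1, Egln3, Ndrg1, Bnip3l, P4ha1, Adm and Mxi1 were higher by 0.35 to 0.74. Adm (-0.45) and Bnip3l (-0.06) were not higher in RT2, and Adm (adjusted p = 0.0373) lost its call in DESeq2, with thinned cells and when NT, RT1 or RT3 was left out. Ddit4 was lower, with a log2 difference of -0.46 ± 0.16 (adjusted p = 0.000617), from 124 to 79.7 CPM in RT1, 124 to 84.9 in RT2 and 124 to 90.0 in RT3, but from 101 to 107 in NT. It lost its call without the cluster led by Lum (-0.27). Hif1a (-0.08) and Kdm3a (-0.10) were not called.

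**Figure D4:**
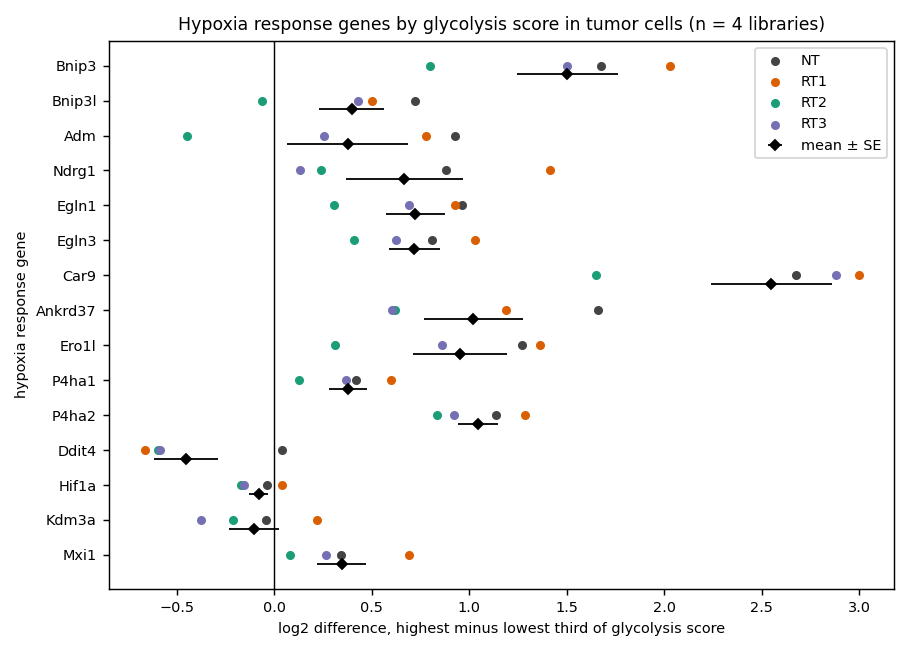
Log2 difference between the highest and lowest tertile of glycolysis score (x axis) for the 15 hypoxia genes (y axis) in tumor cells. Points are the 4 libraries and diamonds their mean with SE, on per-library values with a prior count, which places Car9 lower than its fitted 3.07. Car9, which had few UMIs in the low cells, and Bnip3 lie farthest right, Ddit4 left of 0 in the 3 RT libraries.

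Cells of high glycolysis score differed in other ways from those of low score. The dissociation and stress genes summed to 23036, 20436, 27808 and 24252 CPM in low cells and to 13067, 9899.8, 13036 and 9160.1 CPM in high cells, and 11 of the 12 were lower. Of the cycling genes 11 of 12 were higher, where by hypoxia score all 12 had been lower. The median depth before thinning was 6562, 5542.5, 7731 and 5865 UMIs in low cells and 8550.0, 6937.5, 10895 and 7576 in high cells. The part of these in the differences of the hypoxia genes was not tested. Of 25 other HIF target genes 13 were higher and 6 were lower, with Car12 (1.26) and Fam162a (1.11) among the higher and Bhlhe40 (-0.88) among the lower. Of 21 branch genes 11 were higher, Tkt by 0.99, and Slc2a8, a glucose transporter, was lower (-0.52, adjusted p = 0.0347). Of 16 respiratory chain genes 9 were higher and none lower, where by hypoxia score 9 of 16 were lower.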

How the data were processed

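The authors prepared libraries with a SeekOne MM 3′ kit, sequenced them on an Illumina NovaSeq and deposited UMI counts per gene and barcode, in which 1 count is 1 mRNA molecule. The submitters' processing notes name STAR 2.5.1b, Subread 1.6.4, featureCounts, Cell Ranger and GRCm39 with no order. The filter on barcodes asked for 200 or more genes and no more than 20% of UMIs from mitochondrial genes (9976, 15029, 14993 and 15060 cells passed in NT, RT1, RT2 and RT3). They were clustered with leidenalg 0.10.2 (2000 variable genes by scanpy 1.11.5, 30 components, 20 neighbors, resolution 0.8) without the listed genes, after integration over libraries by a rewritten form of the Harmony algorithm, and clusters were named from markers. No doublets were removed in the values reported; an alternative left out the 8% of cells with the highest doublet score per library. Classes were rebuilt here, since no deposited annotation was used.

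UMIs were summed per library and class. The log2 ratios of RT to NT used 0.5 added UMIs, for genes with a mean of at least 10 UMIs per library. NT is 1 library, so these ratios have no test. For classes and scores, edgeR 4.0.16 (TMM, quasi-likelihood, library as block because both sums came from the same library, called at adjusted p under 0.05) was run in R 4.3.3 on sums over 4 libraries. NT and RT entered together, and DESeq2 1.42.0 was an alternative. The SE is the SD of the 4 differences per library divided by the root of their number. Scores were made on cells thinned to 2000 UMIs, with ties broken at random, which left out 5.00%, 7.81%, 8.63% and 8.95% of tumor cells and 18.2%, 23.6%, 6.68% and 28.6% of macrophages. The score genes were left out of the test, and cells of 1 library are not replicates. The p-values come from edgeR's model, which shares information on variability between genes. They are not computed from the SE given beside them, and they hold for these 4 libraries only. The tests were also run on simulated data, and no value reported here rests on those runs. For Aldoa, whose symbol has 2 gene IDs, ENSMUSG00000030695 was used.

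The 35 genes and all gene lists were chosen with earlier results of these data known. Values per library are given for members called in tumor cells or macrophages and, in each role group, for the member with the most UMIs and the one with the largest ratio. Of the other lists, genes called by the rule, at most 10 per class, and the 10 with the largest change by score are named.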

Additional observations from a re-analysis of the deposited data

Results flagged for a closer look

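The change by hypoxia score was larger in macrophages than in tumor cells for 7 genes, by a test of the difference itself (edgeR quasi-likelihood interaction term, Benjamini-Hochberg over 6068 genes). The extra log2 difference in macrophages was 0.83 for Eno1, 0.60 for Tpi1, 0.51 for Gapdh, 0.51 for Pgam1, 0.47 for Pgk1, 0.37 for Pkm and 0.36 for Ldha. It had the same direction in 4 of 4 libraries for all of these but Gapdh, which had it in 3 of 4. Both classes were ranked by the same genes, but the score differed in level between them, and the part of that in the differences was not tested.

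Bnip3l, a mitophagy receptor, was on opposite sides of NT in the 2 classes in all 3 RT libraries, with a mean log2 ratio of -0.23 in tumor cells and 0.39 in macrophages. The difference was not tested.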

How the results depend on the processing

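With a size of at least 0.25, the rule called 2 members higher and 9 lower in tumor cells, beside 17.5% and 8.29% of all genes, and 2 higher and 8 lower in macrophages, beside 20.9% and 16.7%; with a size of at least 1 it called 0 and 1 in tumor cells (3.72% and 0.187% of all genes) and 1 lower in macrophages (2.53%). Leaving out each RT library in turn gave 1 to 2 members higher and 2 to 6 lower in tumor cells, and 0 to 1 higher and 3 to 6 lower in macrophages. Both counts of 6 came without RT2. Clusters made without integration gave 1 member higher in macrophages. The share of tumor cells at or above the NT boundary score was 41.2%, 42.5%, 30.7% and 38.2% in NT, RT1, RT2 and RT3 at 4000 UMIs, and 34.2%, 40.2%, 30.7% and 35.8% without Egln3, which put RT3 above NT where it had been below.

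The libraries pair the sums by design. Without the replicate block, no glycolysis member was called by hypoxia score in tumor cells or in macrophages (0 of each, with 5 and 11 at an unadjusted p under 0.05), and by glycolysis score 4 hypoxia members were higher and 0 lower. No gene of all those tested was then called by hypoxia score in either class, and 901 and 215 had an unadjusted p under 0.05. Without the cluster led by Lum, an alternative chosen after seeing the data, 0 hypoxia members were lower by glycolysis score, and Ddit4 lost its call. DESeq2 called 11 glycolysis members in tumor cells and 7 in macrophages by hypoxia score, where it gave no adjusted p for the 6 others that edgeR had called. Over all genes it called 485 higher and 667 lower in tumor cells. Leaving out each library in turn gave 13 to 14 glycolysis members in tumor cells, 11 to 14 in macrophages and 11 to 12 hypoxia members. No called value reversed in direction, but the median of the hypoxia genes in macrophages, -0.07, was 0.08 without RT2, 0.04 with clusters made without integration and 0.01 without macrophages holding tumor marker UMIs. Of all genes called by the rule in tumor cells, 84.2% were higher in RT, and 67.7% without RT2. Leaving the block aside, the genes that lost a call in 3 or more alternatives were Adm by glycolysis score, Slc16a3 and, in macrophages, Gpi1 by hypoxia score, and Pkm and Eno1 between the classes. In macrophages Slc2a3, Aldoc and Pfkfb4 had too few UMIs to be tested by hypoxia score.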
